A study of Drosophila mojavensis with 127 samples.

Results

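Among 14528 transcripts measured in the cactus-breeding fly Drosophila mojavensis, the 60 with the lowest mated minus nonmated difference in females were examined. They were chosen on that difference, taken as the mean of 8 mated female groups minus the mean of 8 nonmated female groups on the log2 scale, so their average fall after mating describes the choice and was not tested. The study compared flies of 4 wild-type populations, Punta Onah in Sonora, Organ Pipe National Monument in Arizona, and Punta Prieta and San Quintin in Baja California. Each population was raised on fermenting pitaya agria cactus (Stenocereus gummosus) or organ pipe cactus (Stenocereus thurberi). Mated and nonmated flies of both sexes were sampled, which gave 32 groups of 3 or 4 replicates: 31 replicates of mated and 31 of nonmated females, and 29 of mated and 32 of nonmated males. A population on one host is called a stratum below, and each sex has 8. Age, time since mating and tissue are not given in the labels, and each population appears under a single stock name. Total RNA was labelled with Cy3 and hybridised to NimbleGen arrays, and values are log2 expression as the authors processed it.

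Mating in Drosophila transfers sperm and seminal fluid, and the proteins of the fluid are known to alter egg laying, feeding and willingness to remate in the female. In Drosophila mojavensis the ejaculate is large, and compounds from it are known to enter the tissues and eggs of the female. Transcripts that fall after mating in females of Drosophila melanogaster have been described alongside those that rise. The identifiers here are transcript numbers that the files do not pair with genes, and 0 of 14528 matched the gene table for the species, so no function is assigned to any of the 60. Marker genes of ovary, gut, fat body or other tissues could not be looked up for the same reason. In samples of many cells, fewer cells of a type and less RNA per cell cannot be told apart.

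The 60 transcripts were of moderate abundance and their fall was modest. Their mean level over all arrays ran from the 9.48th to the 99.4th percentile of all transcripts, with a median at the 47.6th percentile, and 11 lay in the dimmest 25%. Their mating difference in females ran from -1.24 to -0.48 (log2), with a median of -0.57. The 60th transcript had a difference of -0.480 and the next one, outside the set, -0.477, so the boundary falls in a continuous range. In the contrast used for the choice 59 of the 60 passed at an adjusted p under 0.05, where 8.56% of all transcripts passed and 5.36% passed in the lower direction; nothing is read from that count. In nonmated females the median level of the 60 was 10.49, close to the median of 10.46 over all transcripts. In mated females it was 9.88, against 10.45 over all transcripts.

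The mean of the 60 in males lay closer to that of nonmated than of mated females; the gap between those female groups is the one that chose the transcripts, so this is a description. Averaged over the 60 in each replicate, expression was 10.60 ± 0.52 in nonmated females (SD, n = 31) and 9.96 ± 0.49 in mated females (SD, n = 31). It was 10.82 ± 0.29 in nonmated males (SD, n = 32) and 10.62 ± 0.38 in mated males (SD, n = 29). Relative to nonmated females, males had a median difference of 0.14 over the 60, and 38 were higher in males. Relative to mated females the median was 0.79, and 56 were higher in males. Over all transcripts the medians were -0.23 and -0.25.

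The fall was present in most strata but its size differed widely. In Organ Pipe National Monument females on agria the mean of the 60 was 9.14, 9.65, 9.44 and 9.78 in the mated replicates and 10.29, 11.20, 10.34 and 10.92 in the nonmated ones. On organ pipe it was 9.39, 9.70, 9.73 and 9.88 in mated against 10.85, 11.11, 10.88 and 9.98 in nonmated females. In both cases every mated replicate lay below every nonmated one. The median difference over the 60 was -1.18 on agria and -0.97 on organ pipe, and all 60 were negative on each host. San Quintin females on agria also separated fully, with 10.39, 9.71, 9.89 and 10.07 in mated and 11.11, 10.45, 11.07 and 11.15 in nonmated replicates, and a median difference of -0.88.

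The other 5 strata overlapped. In Punta Onah females on agria the mated replicates read 10.28, 10.11, 10.68 and 10.96 and the nonmated ones 10.97, 10.89, 11.00 and 10.78. On organ pipe the mated replicates read 9.77, 9.74, 9.08 and 9.84 and the nonmated ones 10.82, 9.73, 11.02 and 9.91. The median differences were -0.45 and -0.77. On organ pipe the nonmated females thus formed a high and a low pair, and the low pair reached the mated level. In Punta Prieta females on agria the mated replicates read 10.23, 10.30, 10.45 and 9.50 and the nonmated ones 9.99, 11.23, 10.73 and 10.34, with a median difference of -0.37. On organ pipe they read 10.81, 10.83, 10.64 and 9.79 against 10.57, 10.97 and 10.80, with a median difference of -0.23. On each host the lowest replicate was a mated one, at 9.50 and 9.79. In San Quintin females on organ pipe the mated replicates read 9.46, 9.94 and 9.69 and the nonmated ones 10.45, 10.02, 9.47 and 9.46. The median difference there was only -0.10, and 37 of the 60 were negative. The nonmated females of this stratum were the lowest nonmated group, at 9.85 ± 0.48 (SD, n = 4). That group is uncertain. Its value of 10.45 averages arrays that read 11.09 and 9.81, and its value of 10.02 averages arrays that read 10.60 and 9.44. The replicate at 9.47 had the lowest array median, 10.15.

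**Figure D1:**
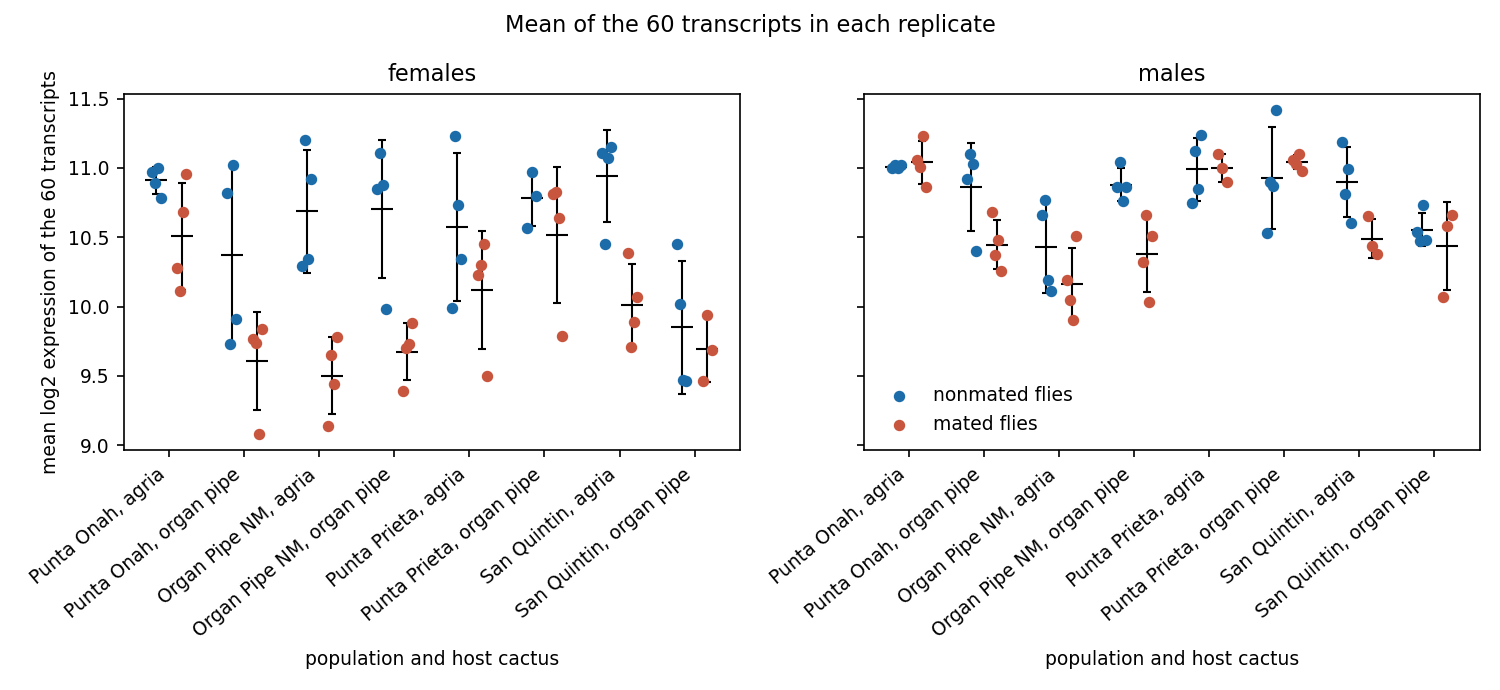
Mean log2 expression of the 60 transcripts in each replicate (points), with the group mean and SD (black), by population and host cactus, for females at the left and males at the right. Mated females of Organ Pipe National Monument lie below all nonmated females of their stratum on both hosts, whereas nonmated San Quintin females on organ pipe reach down to 9.46, and male replicates stay between 9.90 and 11.42.

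Separation of single transcripts was most frequent in the 3 strata where the mean of the 60 also separated, and in the others it did not follow the size of the median difference. Of the 60, 38 had every mated replicate below every nonmated one in Organ Pipe National Monument females on agria, where 6.77% of all transcripts did. The number was 34 on organ pipe in that population (4.22% of all transcripts), 29 in San Quintin on agria (5.55%), 12 in Punta Onah on agria (3.52%) and 10 in San Quintin on organ pipe (1.63%). It was 7 in Punta Onah on organ pipe (1.67%), 5 in Punta Prieta on agria (1.56%) and 4 in Punta Prieta on organ pipe (5.73%). None had every mated replicate above in any stratum. These counts come from the contrast that chose the transcripts and are given as a description. Of the 60, 28 were lower in mated females in all 8 strata, 18 in 7, 10 in 6, 3 in 5 and 1 in 4; 2.03% of all transcripts were lower in all 8.

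FBtr0167250 and FBtr0163377 had the lowest differences and were both lower in mated females in all 8 strata. FBtr0167250 had a lowest, median and highest value of 10.73, 11.66 and 12.68 in nonmated females and 9.33, 10.67 and 11.47 in mated females (n = 31 each). Its mating difference was -1.24 ± 0.09 (SE, log2), 2.36-fold, and ranged from -1.85 to -0.57 over the strata. FBtr0163377 had 10.91, 11.73 and 12.82 in nonmated and 9.24, 10.75 and 11.47 in mated females, a difference of -1.23 ± 0.09 (SE). Pooled over strata the mated and nonmated ranges overlapped for both, but within strata every mated replicate of either transcript lay below every nonmated one in 7 of 8. Unlike the set as a whole, both had their largest difference in San Quintin, -1.63 and -1.60 averaged over hosts, and their smallest in Punta Onah, -0.84 and -0.86. The profiles of this pair were alike in most replicates, with a correlation of 0.965 across 123 replicates and a median absolute difference of 0.07 (log2). The pair may therefore not be independent measurements. The largest difference was 0.91, in a mated Punta Onah male replicate on agria, at 11.88 for FBtr0167250 and 10.97 for FBtr0163377. Some other Punta Onah male replicates also parted, such as a nonmated one on agria at 12.04 and 11.34. Whether the probes of the pair share sequence was not tested.

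**Figure D2:**
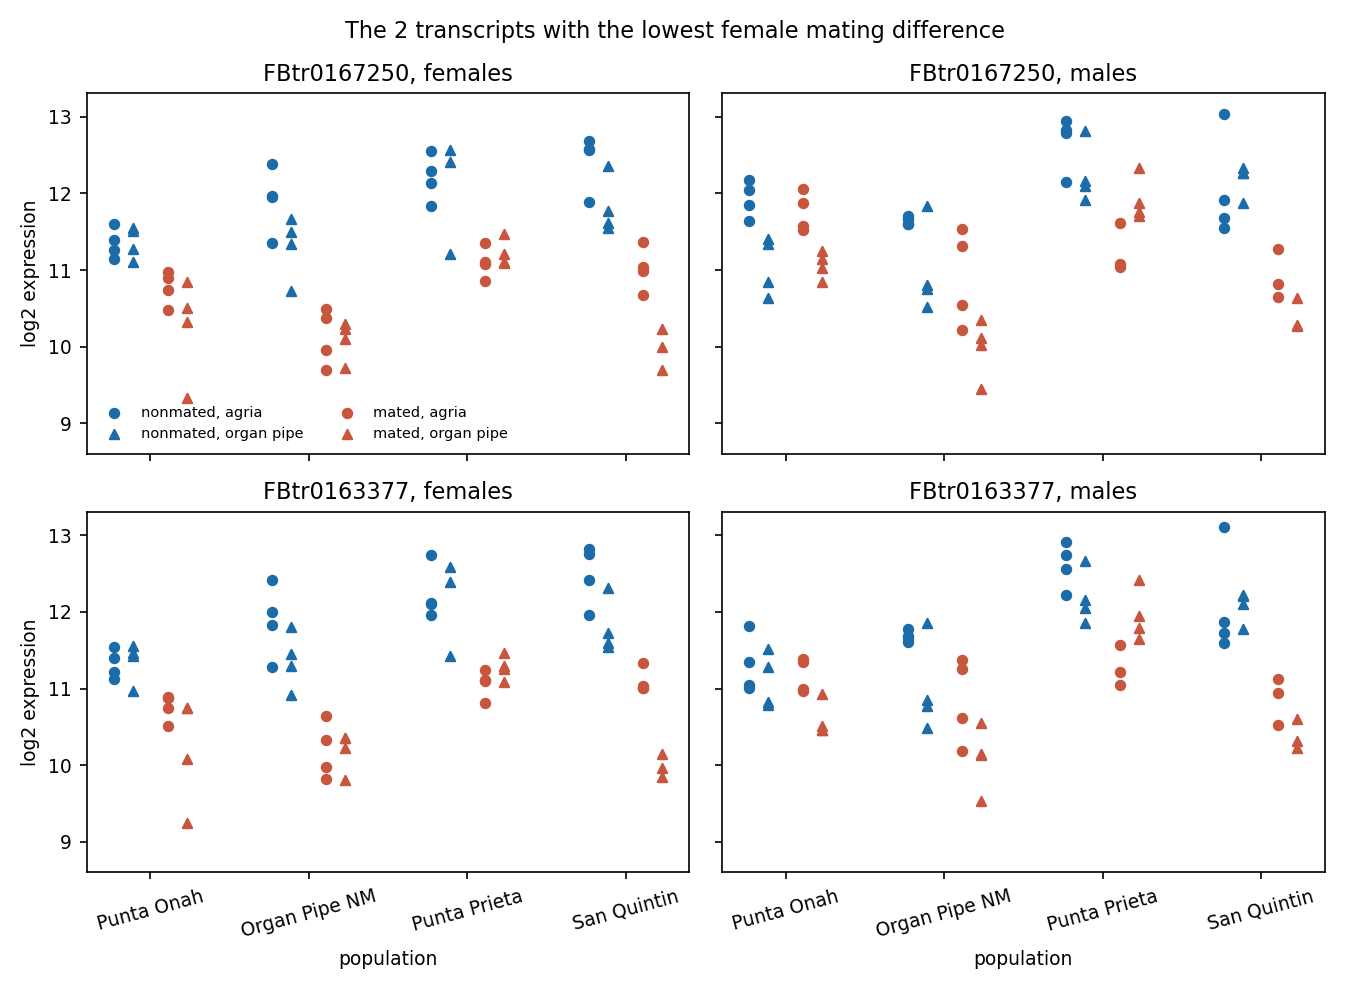
Log2 expression of FBtr0167250 (top) and FBtr0163377 (bottom) in every replicate of females (left) and males (right), by population, with nonmated flies in blue, mated flies in red, agria as circles and organ pipe as triangles. In females the mated replicates span 9.33 to 11.47 for FBtr0167250 and the nonmated ones 10.73 to 12.68; in San Quintin and Punta Prieta males on agria every mated replicate lies below every nonmated one.

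Mating in males was measured on arrays that the choice of the transcripts had not used. There 11 of the 60 passed the test (limma, adjusted p under 0.05), all of them lower in mated males, while 7.94% of all transcripts passed, 1.5% lower and 6.44% higher in mated males. The differences of the 11 ran from -0.86 to -0.19 (log2), and 5 of the 11 were among the 10 transcripts lowest in mated females. Over the 60 the median male difference was -0.18 and 51 were negative; over all transcripts the median was 0.00163 and 49.4% were negative. The fall in males was smaller than the one that chose the transcripts in females, and the size of the second is fixed by that choice, so the gap between the sexes was not tested. The count was 6 without replicate 2 (4.34% of all transcripts passed), 7 without replicate 3 (4.27%), 6 without Punta Onah (3.52%) and 6 without San Quintin (7.65%). With array weights 18 were lower and 2 higher (23.6%). Over the most sex-biased transcripts 2 male replicates lay nearest the females, and without them the count was 11 (7.45%).

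The leading pair fell in both sexes. FBtr0167250 had 10.52, 11.87 and 13.04 (lowest, median and highest) in nonmated males and 9.45, 11.08 and 12.33 in mated males, a difference of -0.82 ± 0.09 (SE; adjusted p = 2.9e-11 in limma). FBtr0163377 had 10.48, 11.78 and 13.11 in nonmated and 9.53, 10.94 and 12.41 in mated males, a difference of -0.85 ± 0.09 (SE; adjusted p = 4.13e-12 in limma). The ranges overlapped, and FBtr0167250 was lower in mated males in 7 and FBtr0163377 in 8 of 8 strata. As in females, both had their largest male difference in San Quintin, -1.46 each, and their smallest in Punta Onah, -0.07 and -0.32. By contrast, other transcripts of the set moved in females and little in males. FBtr0173060 had 10.09, 10.88 and 11.70 in mated and 10.58, 11.74 and 12.34 in nonmated females, whereas mated males had 12.75, 13.50 and 14.23 and nonmated males 13.02, 13.62 and 14.30.

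**Figure D3:**
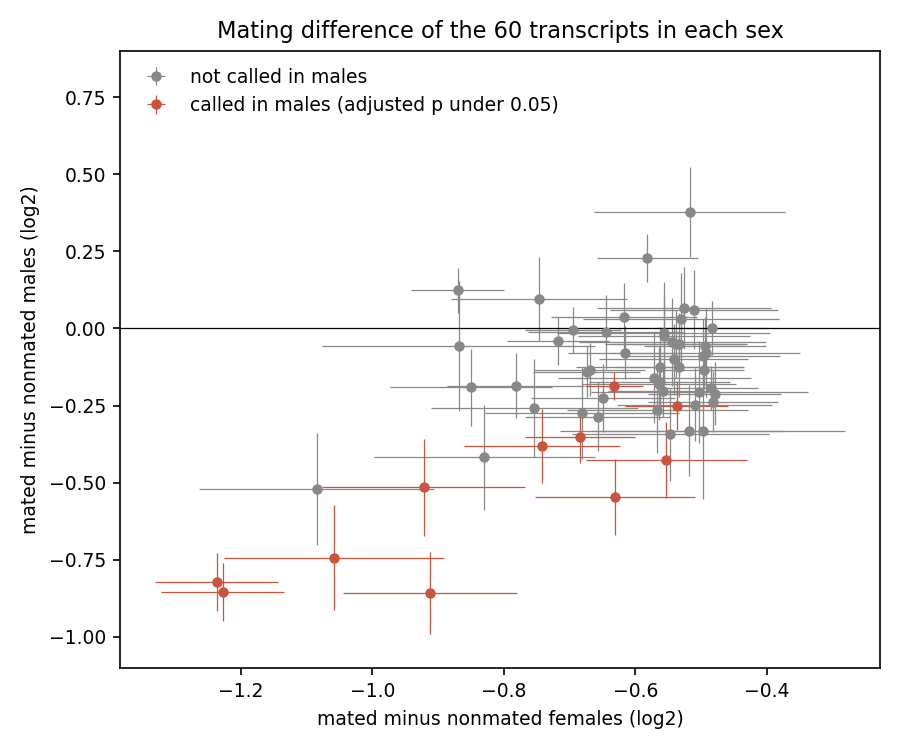
Mated minus nonmated difference of each of the 60 transcripts in females (horizontal, log2) and males (vertical, log2), with standard errors from the fit as bars; red marks the 11 that passed the test in males. The pair at the lower left, near -1.24 in females, has male differences of -0.82 and -0.85, and most other transcripts lie between -0.5 and 0 in males.

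The median male difference was not the same in all strata, also between hosts within Punta Onah. Its variation among populations and between hosts was not tested. In Organ Pipe National Monument males on organ pipe the median difference was -0.48, 54 of 60 were negative, and 13 had every mated replicate below every nonmated one, where 2.66% of all transcripts did. Medians were -0.29 in Punta Onah on organ pipe, -0.25 in Organ Pipe National Monument on agria, -0.32 in San Quintin on agria and -0.14 in San Quintin on organ pipe. They were 0.01 in Punta Onah on agria and 0.06 and 0.08 in Punta Prieta on agria and organ pipe. The numbers not overlapping in the lower direction were 12 in Punta Onah on organ pipe (8.81% of all transcripts), 9 in San Quintin on agria (1.93%), 6 in San Quintin on organ pipe (13.4%) and 5 in Punta Prieta on agria (13.7%). Organ Pipe National Monument on agria had 2 (0.344%), and Punta Onah on agria (0.929%) and Punta Prieta on organ pipe (2.51%) had 0. In the higher direction 4 transcripts separated in Punta Prieta on agria (9.42% of all transcripts) and 3 in Punta Onah on agria (1.94%). In that direction 2 separated in Punta Onah on organ pipe (17.3%) and 1 in San Quintin on agria (5.31%). Of the 60, 6 were lower in mated males in all 8 strata, and 0.592% of all transcripts were.

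The size of the female mating difference varied among populations. The test uses differences among populations, which cancel in the average that chose the transcripts. A large fall in a single population still lowers that average, so the choice can favour transcripts that vary in this way. Without Organ Pipe National Monument 38 of the 60 were chosen again. In the test 14 of the 60 passed (limma F test over 3 contrasts, adjusted p under 0.05), while 5.56% of all transcripts passed. All 14 had their most negative difference in Organ Pipe National Monument, with a median of -1.23 and a range of -1.96 to -0.82. The same 14 had medians of -0.64 in Punta Onah, -0.47 in San Quintin and -0.11 in Punta Prieta. Over all 60 the medians by population were -1.06 in Organ Pipe National Monument, -0.61 in Punta Onah, -0.52 in San Quintin and -0.32 in Punta Prieta, and 50 were most negative in Organ Pipe National Monument, as were 41.2% of all transcripts. Calls over all transcripts moved with the samples used as well. Without Organ Pipe National Monument 0 of the 60 and 0.0688% of all transcripts passed, and without Punta Prieta 2 and 1.29% did. Leaving out replicate 1, 2, 3 or 4 gave 4, 3, 5 or 23 calls (2.02%, 0.971%, 2.19% and 5.55% of all transcripts), and array weights gave 38 (34.5%).

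FBtr0168844 and FBtr0173060 had the smallest p-values for this interaction. FBtr0168844, one of the most abundant of the 60, had 12.84, 13.48 and 13.81 in mated and 14.23, 14.55 and 14.71 in nonmated females of Organ Pipe National Monument (n = 8 each), groups that did not overlap. In Punta Prieta it had 13.62, 13.91 and 14.02 in mated (n = 8) and 13.94, 14.24 and 14.38 in nonmated females (n = 7), which overlapped slightly. Its difference was -1.06 in the former population and -0.33 in the latter, 0.74 apart on the log2 scale (adjusted p = 3e-04 in limma). Without replicate 2 its adjusted p in limma was 0.0677, and without Organ Pipe National Monument 0.981. FBtr0173060 stood at 12.04 ± 0.20 in nonmated and 10.68 ± 0.27 in mated females of the former population (SD, n = 8 each). In Punta Prieta it measured 11.21 ± 0.38 in nonmated (SD, n = 7) and 11.10 ± 0.36 in mated females (SD, n = 8). Its differences were 1.26 apart (adjusted p = 0.000967 in limma), and the call was lost without Organ Pipe National Monument (adjusted p = 0.904) and without Punta Prieta (adjusted p = 0.0605).

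**Figure D4:**
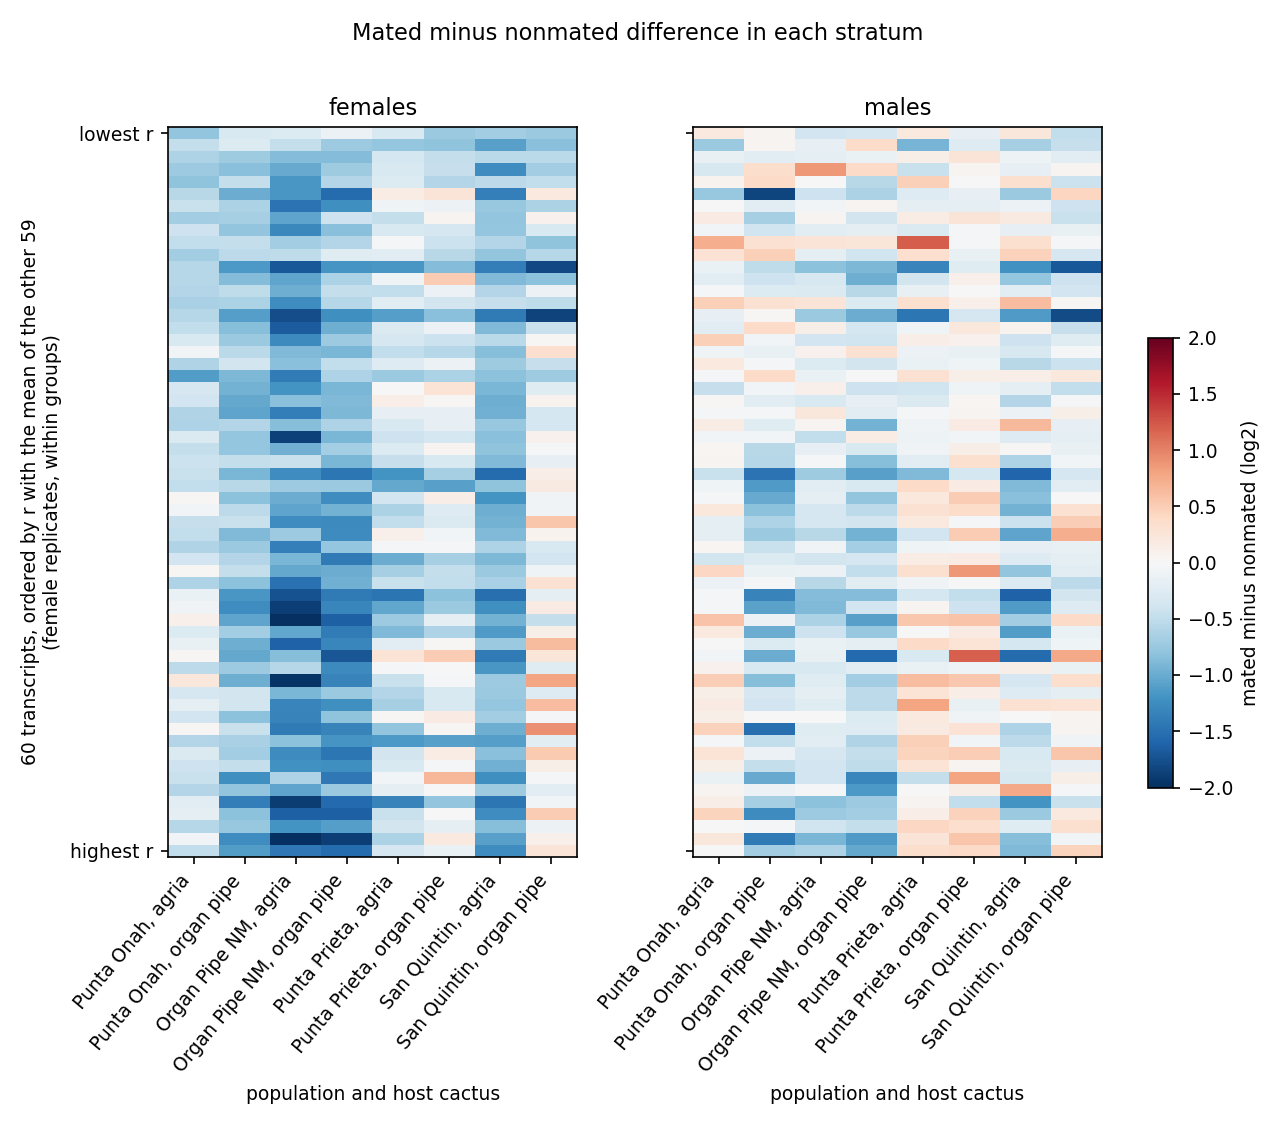
Mated minus nonmated difference (log2, blue lower and red higher in mated flies) of the 60 transcripts (rows) in the 8 strata of population and host (columns), for females and males. Rows are ordered by how closely a transcript follows the mean of the other 59 between replicates of a group in females; the lower rows are deep blue in both Organ Pipe National Monument columns and pale or red in San Quintin on organ pipe, and the upper rows are more even.

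The 60 transcripts varied strongly between replicate females and varied together. They were chosen on means of these same female replicates, which can favour transcripts with a large spread and ones that deviate together. How far the choice accounts for the female values below was not tested. In males, whose arrays the choice did not use, 17 of the 60 (28.3%) were in the top 5% for this spread. The SD between replicates of a group had a median of 0.503 over the 60 and 0.246 over all transcripts. Of the 60, 36 (60.0%) were among the 727 transcripts in the top 5% for this SD in females, and they made up 4.95% of those 727. After group means were removed, the mean correlation between pairs of the 60 across 62 female replicates was 0.565, against 0.0251 over all pairs of transcripts, and one component held 66.7% of their variation. Each transcript was set against the mean of the other 59 in the same way: r ran from 0.121 to 0.927 with a median of 0.787. In 61 male replicates the mean pair correlation was 0.23, against 0.0115 over all pairs, and r with the other 59 ran from -0.266 to 0.871, with 9 transcripts below 0.

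How closely a transcript followed the others went with its profile over strata. The 20 transcripts with the lowest r, 0.12 to 0.72, had median differences in females from -1.06 to -0.31 over the 8 strata, and 15 of them were lower in all 8. The 20 with the highest r, 0.86 to 0.93, had medians of -1.29 and -1.34 in Organ Pipe National Monument but -0.02 in Punta Prieta on organ pipe and 0.11 in San Quintin on organ pipe, and 5 were lower in all 8. The median SD between replicates was 0.45 in the former and 0.66 in the latter. This division was made after the values had been seen. FBtr0168844, with an SD of 0.21 and r of 0.58, and the leading pair, with an SD of 0.36 each and r of 0.66 and 0.61, stood among the less variable ones. The deviation of the set's mean from its group mean correlated with that of the array median across female replicates (r = 0.521, rho = 0.635, n = 62; r = 0.589 without the 2 replicates farthest from the median). In males the values were r = 0.0962 and rho = 0.160 (n = 61; r = 0.173 without 2). The part of the array median in the set's variation was not tested.

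The sexes differed in no larger a share of the 60 than of all transcripts, but males were more often higher, usually by little. Sex was tested on means over both mating states, and 52 of the 60 (86.7%) passed (limma, adjusted p under 0.05), where 93.1% of all transcripts did. Males were higher in 45, against 36.9% of all transcripts, and females in 7, against 56.1%. The median male minus female difference was 0.44 over the 60 and -0.24 over all transcripts. Past 2-fold, 6 were higher in males (15.4% of all transcripts) and 1 in females (20.2%), so the set held few strongly sex-biased transcripts. Both female mating states count equally in this contrast, so the mated minus nonmated difference cancels in it. Transcripts that fall in mated females can still have a lower female mean, so the choice may bear on these differences. This was not tested.

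The 6 past 2-fold in males ranged from 1.06 to 3.63 (log2), with FBtr0171653 and FBtr0173060 having the smallest p-values, and the one in females was FBtr0161910. FBtr0171653 had 12.26, 13.20 and 13.46 in males (n = 61) and 8.00, 9.46 and 10.91 in females (n = 62), ranges that did not overlap, a difference of 3.63 ± 0.09 (SE; adjusted p = 9.22e-61 in limma). FBtr0173060 was higher in males by 2.31 ± 0.06 (SE; adjusted p = 1.25e-60 in limma), again without overlap. FBtr0161910 had 8.44, 10.02 and 10.93 in females and 5.87, 6.65 and 9.69 in males, a male minus female difference of -3.11 ± 0.10 (SE; adjusted p = 4.76e-53 in limma). The overlap came from 2 male replicates on agria, a mated one of Organ Pipe National Monument at 9.69 and a nonmated one of Punta Onah at 8.66. The replicate at 9.69 was also the male replicate nearest the females over the most sex-biased transcripts. Without the 2 male replicates nearest the females the difference was -3.16. FBtr0173861 was also lower in males, by 0.74 on the log2 scale (-0.74 ± 0.07, SE; adjusted p = 4.82e-19 in limma).

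On organ pipe nearly all of the 60 were lower than on agria in females, but none passed the test. The median host difference was -0.25 (log2), and 59 of the 60 were negative, against 0.02 and 38.1% over all transcripts. In limma 0 of the 60 and 0% of all transcripts passed, with a smallest adjusted p of 0.171 among the 60. An unadjusted p under 0.05 in limma was seen in 38 of the 60. The share of all transcripts under that level was not counted and the 60 vary together, so nothing is read from that number. The direction came from 2 populations: the median was -0.68 in Punta Onah and -0.65 in San Quintin, whereas Punta Prieta had 0.33 and Organ Pipe National Monument 0.15. Without Organ Pipe National Monument 24 of the 60 passed (3.03% of all transcripts), without Punta Prieta 33 (2.88%), and with array weights 11 (17.2%), all lower on organ pipe; the 11 are a share near that of all transcripts. The host also made no called difference to the mating response. In limma 0 of the 60 and 0% of all transcripts passed, and the smallest adjusted p among the 60 was 0.644. In 54 of the 60 the female mating difference was less negative on organ pipe, by a median of 0.20. Over all transcripts that difference was higher on organ pipe in 49.5%. Populations did not share the direction. Medians over the 60 on agria and organ pipe were -0.88 and -0.10 in San Quintin and -1.18 and -0.97 in Organ Pipe National Monument. They were -0.37 and -0.23 in Punta Prieta, but -0.45 and -0.77 in Punta Onah. The gap between hosts was widest in San Quintin. It rests there on the nonmated organ pipe group called uncertain above, as does the San Quintin host difference. Since the 60 vary together, nothing is read from the count of 54.

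In males 1 of the 60 differed between hosts, where 2% of all transcripts did, 1.31% lower and 0.688% higher on organ pipe. This was FBtr0167250, with 10.22, 11.62 and 13.04 on agria (n = 30) and 9.45, 11.25 and 12.81 on organ pipe (n = 31), a difference of -0.41 ± 0.09 (SE; adjusted p = 0.00655 in limma). The hosts overlapped broadly, and the call was lost without replicate 1, 2 or 3 (adjusted p up to 0.105), without Punta Onah (0.408), without Organ Pipe National Monument (0.0981) and with array weights (0.111). The count was 0 in the first 4 of these cases. It was 5 without Organ Pipe National Monument (4.48% of all transcripts), 4 without Punta Prieta (3.92%) and 4 without San Quintin (16.1%). FBtr0163377, the other of the leading pair, had a male host difference of -0.31 ± 0.09 (SE) and did not pass (adjusted p = 0.0604 in limma).

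Between regions the 60 had no common direction in females. Baja California minus mainland passed in 21 of the 60, where 25.8% of all transcripts did, 14 higher (10.5% of all) and 7 lower (15.4% of all), with a median of 0.03. In males 28 passed, against 46.2% of all transcripts, 22 higher (19.4%) and 6 lower (26.8%), with a median of 0.145. In both sexes 16 passed, 12 higher and 4 lower in Baja California. The share of all transcripts that passed in both sexes was not counted, so nothing is read from that number. Each region is represented by 2 populations, and the split moved with them. Without Organ Pipe National Monument 6 were higher and 9 lower in females (30.5% of all transcripts passed) and 12 and 15 in males (60.9%). Without Punta Prieta the numbers were 5 and 8 in females (10.9%) and 11 and 11 in males (34.7%). Without Punta Onah they were 13 and 3 in females (13.9%) and 24 and 4 in males (37.1%), and without San Quintin 22 and 5 (24.1%) and 31 and 3 (42.9%). In females the calls numbered 12 when replicate 2 was left out (16.9% of all transcripts), 11 when replicate 3 was (15.3%), and 37 under array weights (46.8%).

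FBtr0163377 was higher in Baja California in both sexes. In females it had 9.85, 11.44 and 12.82 there (n = 30) and 9.24, 10.90 and 12.42 on the mainland (n = 32), a difference of 0.60 ± 0.09 (SE; adjusted p = 2.83e-07 in limma). In males the difference was 0.70 ± 0.09 (SE; adjusted p = 8.47e-10 in limma). FBtr0168137 was higher in Baja California females by 0.57 ± 0.09 (SE; adjusted p = 1.55e-07 in limma), and FBtr0174848 in males by 0.44 ± 0.06 (SE; adjusted p = 4.22e-09 in limma). In the other direction, FBtr0173861 separated the regions most clearly in males, with 9.01, 9.50 and 10.35 in Baja California (n = 29) and 9.89, 10.30 and 11.20 on the mainland (n = 32), a difference of -0.85 ± 0.09 (SE; adjusted p = 5.52e-13 in limma). In females it differed by -0.39 ± 0.09 (SE; adjusted p = 0.000732 in limma) and FBtr0173706 by -0.54 ± 0.12 (SE; adjusted p = 0.000394 in limma). FBtr0161910 differed by -0.56 ± 0.14 in males (SE; adjusted p = 0.000334 in limma). Without Punta Onah the adjusted p-values in limma were 0.0688 for FBtr0174848, 0.298 for FBtr0173861 in females, 0.0633 for FBtr0173706 and 0.33 for FBtr0161910, and without San Quintin that of FBtr0173861 in females was 0.108.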

How the data were processed

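Expression was measured on 127 single-colour arrays. The authors deposited log2 expression per transcript; RMA, a method that corrects background, normalizes arrays together and summarises probes, is named in the submitters' processing notes, with no version. No label gives the scale, and log2 was taken from the range of the values, 4.64 to 15.78. Array medians ran from 10.15 to 10.64. Scanner files were not used here, so background and saturation are unknown, and the number of replicates limits the precision.

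Among San Quintin flies on organ pipe, 4 replicate numbers belonged to a pair of arrays each; these pairs were averaged, which left 123 replicates. The 32 groups each received a mean in a linear model (limma 3.58.1 in R 4.3.3: lmFit, contrasts.fit, eBayes; 91 residual and 4.67 prior degrees of freedom). Each comparison weighted its groups equally; two-sided p-values were adjusted by Benjamini-Hochberg over all 14528 transcripts and called under 0.05. No label says whether replicates were separate cultures, so the p-values reflect the spread among these samples alone, part of which may be technical.

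The 60 transcripts, the comparisons and the marker lists were chosen with earlier results of these data known. The marker lists were not run, since identifiers carry no gene names. Named were the 2 transcripts with the lowest female difference and, for each test, up to 2 called ones in each direction with the smallest p.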

Additional observations from a re-analysis of the deposited data

Results flagged for a closer look

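In 2 of 27 groups with 4 replicates, 1 replicate lay apart from the other 3 in the mean of the 60 transcripts; chance alone gives about 1 in 20 groups. In mated Punta Onah females on organ pipe the lowest replicate stood at 9.08 and the others between 9.74 and 9.84. In nonmated San Quintin females on agria the lowest stood at 10.45 and the others between 11.07 and 11.15.

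The female mating difference varied among populations in 14 of the 60 transcripts. The gap between the most and the least negative population was 0.74 (log2) for FBtr0168844 and 1.26 for FBtr0173060, in both between Organ Pipe National Monument and Punta Prieta.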

How the results depend on the processing

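The alternatives tried were a repeat of quantile normalization, a common median for all arrays, removal of the 25% dimmest transcripts, separate use of arrays sharing a number, a replicate block, a fit to one sex, array weights (whose estimation stopped before full convergence), a trended and robust prior, leaving out each replicate number and each population and, chosen after seeing the data, leaving out the 2 male replicates nearest the females. Of the 60 transcripts, 45 to 60 were chosen again in all alternatives but that without Organ Pipe National Monument, which kept 38. Without each replicate number 47 to 54 were. The common median, the one-sex fit and the other prior cannot change the ranking, so their 60 of 60 says nothing about stability. Removal of the dimmest transcripts left 49 of the 60 and kept all 49, which is also fixed in advance. Called transcripts among the 60 are given with the share of all transcripts called in brackets. For mating in males they numbered 20 with array weights (23.6%), 6 without Punta Onah (3.52%) and 6 without San Quintin (7.65%). Without each replicate number they were 6 to 10 (4.27% to 6.3%). For population by mating they numbered 38 with array weights (34.5%), 0 without Organ Pipe National Monument (0.0688%) and 2 without Punta Prieta (1.29%). Without each replicate number they were 3 to 23 (0.971% to 5.55%). For region in females they numbered 37 with array weights (46.8%), 13 without Punta Prieta (10.9%) and 11 to 22 without each replicate number (15.3% to 20.6%). For host in females they numbered 11 with array weights (17.2%), 24 without Organ Pipe National Monument (3.03%) and 33 without Punta Prieta (2.88%). For host in males they numbered 2 after quantile normalization (1.44%), 3 after the median shift (1.82%), 3 with the replicate block (2.07%) and 2 with array weights (11.9%). Without Punta Onah there were 0 (0.227%), without Organ Pipe National Monument 5 (4.48%), without Punta Prieta 4 (3.92%) and without San Quintin 4 (16.1%). Without each replicate number there were 0 to 1 (0.206% to 1.82%). Where no alternative's construction shows it, the cause was not tested. Counts for sex (42 to 54), region in males (21 to 34) and host by mating (0) stayed within 1.5 times. The shares of all transcripts were 91.5% to 94.7%, 34.7% to 60.9% and 0% to 0.31%. The replicate block gave 12 calls for mating in males (7.98%), 14 for population by mating (5.38%) and 52 for sex (93.0%). It gave 20 and 27 for region in females and males (25.8% and 46.1%), 0 for both female host tests (0%) and the same 60 transcripts. Replicate numbers did not pair samples: mated and nonmated replicates of one number had deviations correlated at a median of -0.0199 (59 pairs, from -0.631 to 0.719), against 0.0102 for other numbers. Of 277 alternative values of the 17 named results, 262 kept direction and side of the threshold, 15 lost the call and 0 reversed.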

Other observations

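Arrays that shared a replicate number, averaged above, differed in the mean of the 60 transcripts. In nonmated San Quintin females on organ pipe the first pair read 11.09 and 9.81 and the second 10.60 and 9.44. In San Quintin males on organ pipe the pairs read 9.94 and 10.20 (mated) and 11.01 and 10.45 (nonmated). Within each nonmated female pair the arrays thus lay as far apart as mated and nonmated females do in Organ Pipe National Monument.

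The 60 transcripts with the highest mating difference in females also varied together between female replicates, with a mean pair correlation of 0.486. They too were chosen on these female replicates. Across male replicates their mean pair correlation was 0.407. Their mean deviated in the same direction as that of the lowered 60 across female replicates of a group (r = 0.406, rho = 0.358, n = 62; r = 0.386 without the 2 farthest replicates), although mating separates the sets in opposite directions by choice. In males the relation was negative (r = -0.350, rho = -0.191, n = 61; r = -0.315 without 2).

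Among the 1770 pairs of the 60 transcripts, 2 correlated above 0.95 across all 123 replicates, the leading pair being one of them, and 127 correlated below 0.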
